A study of Mus musculus with 12 samples.

Results

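The genes described here encode the transcriptional coactivators YAP (Yap1) and TAZ (Wwtr1), the TEAD DNA-binding factors they work through (Tead1, Tead2, Tead3 and Tead4), and widely used target genes of these factors (Ctgf, Cyr61, Ankrd1 and Amotl2). They are a list given by name, with no threshold on their values: 10 genes of the 33560 with counts, each matched by symbol to 1 Ensembl identifier (Ctgf and Cyr61 are Ccn2 and Ccn1 in newer tables). All 10 passed the filter on low counts. They were measured by poly(A) RNA-seq in 12 libraries of glutamatergic neurons grown from mouse embryonic stem cells and taken at day 21 in vitro. Wild-type (WT) lines and lines lacking a microexon of Daam1 (KO), a formin that nucleates actin filaments, received either water as vehicle or 10 µM of the ROCK inhibitor Y-27632 for 2 h. Each genotype had 3 labelled cell lines, and each line gave 1 vehicle and 1 inhibitor library, so the 4 groups hold 3 libraries each. Whether a line is 1 clone, and which bases the microexon spans, are not given in the sources used here. The text of the series names hippocampus as the source, but the labels of all 12 libraries name cultured neurons, and the labels were followed.

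YAP and TAZ carry no DNA-binding domain and act on genes by binding TEAD factors. The Hippo kinases MST and LATS phosphorylate YAP and TAZ and keep them in the cytoplasm, and tension in the actin cytoskeleton favours their entry into the nucleus. In the nervous system YAP is known mainly from progenitors and glia and is low in most mature neurons.

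TEAD factors recognise the word GGAATG, read as CATTCC on the other strand. RefSeq promoters (GRCm38.p6, the 250 bases before each start site, both strands searched) were in the table for 7 of the 10 genes. Tead1, Tead4 and Ctgf were not among them. The word stood in at least 1 promoter of Yap1, Wwtr1, Tead3, Cyr61, Ankrd1 and Amotl2, and in none of Tead2. Of all 32851 promoters of this length, 12.6% held it. That share is per promoter, whereas a gene was counted if any of its promoters held the word, and Tead3 had 3 promoters and Wwtr1 had 2. The promoters of 3 target genes are shown, with the word in capitals, because Cyr61 and Ankrd1 carry the pattern described last and Amotl2 is a target beside them that did not share it. Cyr61 is shown from chr3:145649986-145650235 (minus strand), Ankrd1 from chr19:36119845-36120094 (minus strand) and Amotl2 from chr9:102717554-102717803 (plus strand).
Cyr61: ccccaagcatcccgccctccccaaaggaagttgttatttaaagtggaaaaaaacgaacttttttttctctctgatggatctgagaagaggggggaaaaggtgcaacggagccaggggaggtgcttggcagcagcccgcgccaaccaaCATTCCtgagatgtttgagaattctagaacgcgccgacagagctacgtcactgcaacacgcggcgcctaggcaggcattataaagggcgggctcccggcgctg
Ankrd1: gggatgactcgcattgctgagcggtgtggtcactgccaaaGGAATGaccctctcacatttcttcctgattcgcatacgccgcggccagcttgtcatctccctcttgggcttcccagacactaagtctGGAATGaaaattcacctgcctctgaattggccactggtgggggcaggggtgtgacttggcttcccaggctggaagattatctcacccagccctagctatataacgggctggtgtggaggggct
Amotl2: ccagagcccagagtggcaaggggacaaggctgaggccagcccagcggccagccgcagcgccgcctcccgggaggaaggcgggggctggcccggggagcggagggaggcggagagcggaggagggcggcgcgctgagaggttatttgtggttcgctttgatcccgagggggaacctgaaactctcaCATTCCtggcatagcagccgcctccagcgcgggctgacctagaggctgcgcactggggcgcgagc
The Ankrd1 promoter held the word at 210 and at 123 bases before the start site. The Cyr61 promoter held it once, at 103 bases, and the Amotl2 promoter once, at 65 bases. A match of letters is a description of the sequence and not evidence of binding.

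Library totals ran from 23253566 to 35012561 counts. All 14 glutamatergic markers examined, among them Slc17a6, Tbr1 and Map2, were detected in every library. Of the variance over 15443 tested genes, 74.3% lay on the first principal component, where 3 libraries stood apart: WT vehicle line 2 at 68.1, WT inhibitor line 3 at 60.3 and KO inhibitor line 3 at 163, against -73.8 to 1.41 for the other 9. Each comparison below is therefore also given without the libraries it rests on. No label says that replicates were differentiated separately beyond their line, so p-values measure the spread between these libraries.

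Yap1 and Wwtr1, the coactivators, were detected in every library. In vehicle, Yap1 stood at 9.53, 42.7 and 4.73 CPM (counts scaled to a common library size, lines 1 to 3) in WT and at 9.99, 3.29 and 4.63 CPM in KO. In inhibitor it stood at 12.9, 14.4 and 37.7 CPM in WT and at 17.4, 3.70 and 135 CPM in KO. The 3 highest values belonged to the libraries that stood apart, and the groups overlapped in each of the 4 comparisons between them. Wwtr1 held 7.54, 28.5 and 4.80 CPM in WT vehicle, 7.76, 4.76 and 6.001 in KO vehicle, 9.20, 9.44 and 24.4 in WT inhibitor, and 12.1, 7.66 and 52.0 in KO inhibitor. The same 3 libraries were the highest.

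Among the TEAD factors, Tead1 was the most counted. Tead1 held 19.4, 86.0 and 12.6 CPM in WT vehicle, 24.3, 9.26 and 10.5 in KO vehicle, 24.4, 23.8 and 67.5 in WT inhibitor, and 30.1, 7.86 and 224 in KO inhibitor. Within WT vehicle and within KO inhibitor a single line lay far above the other 2. Tead2, a TEAD of the early embryo and of neural progenitors, ran from 0.578 CPM in KO inhibitor line 2 to 25.7 in KO inhibitor line 3. Tead3 had the narrowest range of the 4 factors, from 1.57 to 8.30 CPM. Tead4, known from the trophectoderm, held 1 count in each library of KO line 2 and 457 counts in KO inhibitor line 3.

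The target genes were also high in these 3 libraries, by unequal amounts, with Ankrd1 the exception. Ctgf, a secreted matricellular protein, held 63.0, 565 and 36.9 CPM in WT vehicle and 97.1, 20.6 and 29.7 in KO vehicle. In inhibitor it held 81.5, 88.1 and 324 CPM in WT and 138, 20.9 and 2004 in KO. KO inhibitor line 3 had the highest Ctgf level and KO line 2 the lowest in both treatments. Cyr61, a related matricellular protein, held 26.2, 296 and 11.8 CPM in WT vehicle, 40.5, 5.88 and 10.7 in KO vehicle, 26.1, 21.1 and 69.6 in WT inhibitor, and 23.9, 4.89 and 153 in KO inhibitor. Ankrd1, an ankyrin-repeat protein of muscle and of stretched cells, held 2.17, 40.3 and 0.555 CPM in WT vehicle, 6.15, 0.562 and 1.37 in KO vehicle, 0.723, 1.09 and 4.43 in WT inhibitor, and 1.63, 0.434 and 4.90 in KO inhibitor. Ankrd1 in KO vehicle line 1 exceeded 2 of the 3 libraries that stood apart. For Cyr61 and Ankrd1 the highest library was WT vehicle line 2, whereas for the other 8 genes it was KO inhibitor line 3. Amotl2, an angiomotin that binds YAP as well as being its target, lay between 39.5 and 55.4 CPM in the 9 other libraries and at 140, 78.6 and 207 CPM in WT vehicle line 2, WT inhibitor line 3 and KO inhibitor line 3.

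**Figure D1:**
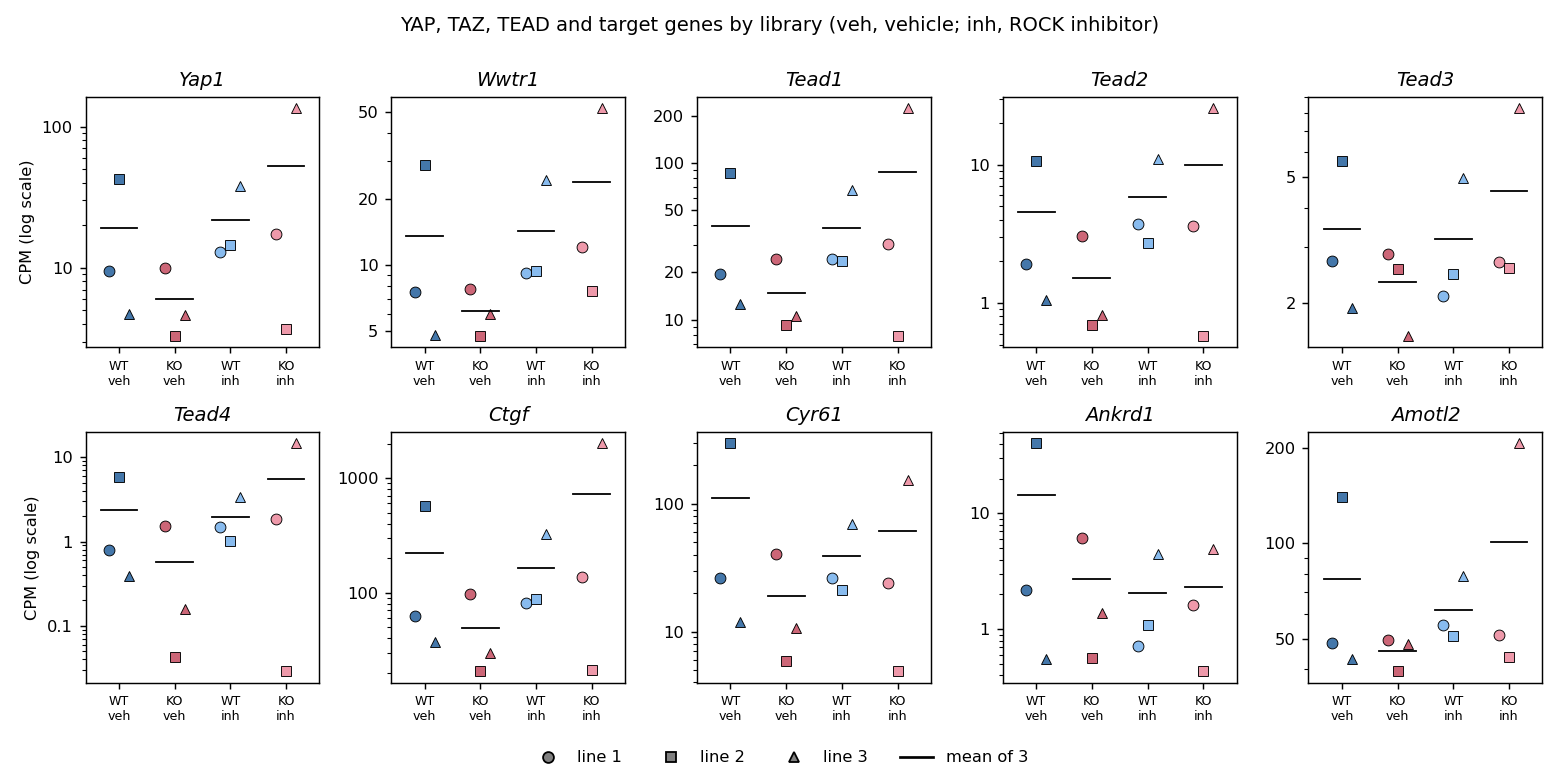
Level of each of the 10 genes in each library (CPM, log axis), by group on the horizontal axis, with the cell line as the symbol and the mean of 3 libraries as a bar. WT vehicle line 2, WT inhibitor line 3 and KO inhibitor line 3 are high for nearly every gene, and KO inhibitor line 3 reaches 2004 CPM for Ctgf.

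Per length of transcript, in the deposited cRPKM, Ctgf was the most abundant of the 10 in WT vehicle (92.2 ± 122, SD, n = 3), followed by Cyr61 (55.5 ± 79.0), Amotl2 (17.9 ± 12.02) and Ankrd1 (8.12 ± 12.7). Yap1 (4.53 ± 4.81), Tead1 (3.92 ± 3.93), Wwtr1 (2.89 ± 2.68), Tead2 (2.13 ± 2.45), Tead3 (1.36 ± 0.73) and Tead4 (0.76 ± 0.98) came after them. The SDs were of the size of the means for most genes, and no neighbours in this order differed beyond their spread. In KO vehicle Amotl2 had the smallest SD of the 10 relative to its mean, at 10.5 ± 1.14 cRPKM.

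The first comparison asked how loss of the microexon altered these genes without inhibitor. All 10 fitted log2 differences of KO against WT in vehicle were negative (median -1.62, against -0.01 over all genes, of which 48.3% were above 0), and none passed the test. Cyr61 stood at -2.54 ± 1.45 (SE), Ankrd1 at -2.40 ± 1.54, Ctgf at -2.17 ± 1.53 and Yap1 at -1.66 ± 1.20, with adjusted p = 0.999 for each in edgeR's quasi-likelihood test. In edgeR 0% of the 15443 genes were called, 307 genes (1.99%) had an unadjusted p under 0.05, none of the 10 among them, and DESeq2 called 17 genes (0.113%), none of the 10. Group ranges did not separate for any of the 10, against 4.9% of all genes with all KO libraries below all WT libraries and 7.62% with all above. The size rested on WT vehicle line 2: without it 8 of the 10 differences were still negative, but with a median of -0.0057 and a range of -0.26 to 0.98. Of 18 further genes of a YAP target signature, 15 were lower and 3 higher, 1 of them (Axl, a receptor tyrosine kinase, -2.20 ± 0.98) at an unadjusted p of 0.0498. Among 18 Hippo kinases and upstream regulators 15 were lower (median -0.15), and among 15 binding partners of YAP and TEAD 10 were lower (median -0.21). Summed epithelial markers in these libraries were 59.9, 579 and 22.2 CPM in WT and 84.3, 14.5 and 26.6 CPM in KO, with 7 of 7 lower in the fit (median -2.60). Of 15 mesenchymal markers tested 14 were lower (median -2.40, 9 at an unadjusted p under 0.05), and of 8 smooth muscle and mural markers 7 were lower (median -1.80, 4 at an unadjusted p under 0.05), with none called. Mesenchymal markers as a covariate, added after the values were seen, turned all 10 differences positive (0.77 to 3.53, smallest adjusted p = 0.950, edgeR). These markers themselves differed between the genotypes, so this fit cannot separate them from the genotype. The epithelial covariate gave 4 positive and 6 negative differences (median -0.027). With progenitor markers all 10 stayed negative (median -0.37).

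In inhibitor the signs were the opposite. All 10 differences of KO against WT were positive (median 0.76, against -0.0005 over all genes, of which 49.9% were above 0), from 0.15 ± 1.48 for Ankrd1 to 2.13 ± 1.53 for Ctgf, and none was called (smallest adjusted p = 0.856, edgeR). In edgeR 0% of genes were called, 540 genes (3.5%) had an unadjusted p under 0.05, none of the 10 among them, and DESeq2 called 13 (0.0769%), none of the 10. No group ranges of the 10 separated, against 3.51% of all genes with KO above WT and 7.03% with KO below. Without KO inhibitor line 3 all 10 differences were negative (median -1.03), and without WT inhibitor line 3 all 10 were positive (median 1.49). With the 3 libraries that stood apart left out, 3 were positive and 7 negative (median -0.22, range -0.69 to 0.24). The YAP target signature had 11 genes higher and 7 lower, the Hippo list 12 and 6, and the binding partners 10 and 5, again with none called. Stk4, the kinase MST1, was the Hippo gene with the smallest p (0.26 ± 0.10, unadjusted p = 0.0239, adjusted p = 0.856). Of the markers of other cells, 7 of 7 epithelial (median 1.39), 9 of 9 progenitor (median 1.18), 8 of 8 astrocyte (median 0.97) and 4 of 5 endothelial (median 1.16) were higher. By contrast 10 of 15 mesenchymal (median -2.05) and 7 of 8 smooth muscle and mural markers (median -0.64) were lower. Striated muscle markers split 2 and 2, and none of any list was called. Summed epithelial markers stood at 110, 121 and 358 CPM in WT inhibitor and at 147, 9.98 and 1442 CPM in KO inhibitor. With progenitor markers as a covariate 7 of the 10 members turned negative (median -0.29), and with epithelial markers 4 did (median 0.33). With mesenchymal markers all 10 stayed positive and grew from a median of 0.76 to 2.93 (1.47 to 4.34). Here too the mesenchymal markers differed between the genotypes, and this fit cannot separate them from the genotype.

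The inhibitor was then compared with vehicle within each genotype. In WT, 3 of the 10 differences were positive and 7 negative (median -0.18, all genes 0.01 with 53.4% above 0), the most negative being Ankrd1 at -2.78 ± 1.57 and Cyr61 at -1.51 ± 1.40 (adjusted p = 1.00 for each, edgeR). In edgeR 0% of genes were called, and 47 genes (0.304%) had an unadjusted p under 0.05, none of the 10 among them. DESeq2 also called 0. No group ranges of the 10 separated, against 2.93% of all genes with inhibitor below vehicle and 3.04% above. Without WT vehicle line 2 all 10 differences were positive (median 1.21), and without WT inhibitor line 3 all 10 were negative (median -0.64). With the line as a block, which pairs the 2 libraries of each line, 6 differences were positive and 4 negative (median 0.30).

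In KO, 9 of the 10 differences with inhibitor were positive (median 2.26, all genes -0.02 with 48.2% above 0). Ctgf stood at 3.87 ± 1.65 (unadjusted p = 0.0409), Yap1 at 3.12 ± 1.26 (unadjusted p = 0.0329) and Wwtr1 at 1.95 ± 0.85 (unadjusted p = 0.0439), each with adjusted p = 0.474 in edgeR. Ankrd1 alone was negative, at -0.22 ± 1.48, and Cyr61 was positive at 1.67 ± 1.41. These 3 of 10 genes compare with 6% of all genes that were higher at an unadjusted p under 0.05, while 0% were called in edgeR and 0 in DESeq2. No group ranges of the 10 separated, against 3.19% of all genes with inhibitor above vehicle and 5.65% below. Summed epithelial markers stood at 84.3, 14.5 and 26.6 CPM in KO vehicle and at 147, 9.98 and 1442 CPM in KO inhibitor. As a covariate they left 6 of the 10 differences positive (median 0.10), and progenitor markers left 4 (median -0.032). Mesenchymal markers left 8 positive (median 1.10). Without KO inhibitor line 3 Ctgf stood at 0.69 ± 1.28, Yap1 at 0.82 ± 0.99, and the median of the 10 at 0.41. With the line as a block 9 of the 10 were positive with a median of 1.35, Ctgf at 1.70 ± 1.73 and Yap1 at 1.75 ± 1.31 (smallest adjusted p = 0.640, edgeR). Myof and Dock5, of the target signature, stood at 3.76 ± 1.66 and 3.61 ± 1.45, and 12 of the 18 signature genes were higher. Map4k4 (0.96 ± 0.40) and Mob1a (1.303 ± 0.57) led 12 higher genes of the Hippo list, and Limd1 (2.41 ± 1.10) and Ptpn14 (3.17 ± 1.44) led 10 higher binding partners, with none called. In bulk RNA, more or fewer cells of a type and more or less RNA per cell cannot be told apart.

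The difference between the 2 inhibitor responses was tested as the interaction of genotype and inhibitor. All 10 estimates were positive (median 2.58, or 1.06 with the line as a block, with 49.2% of all genes above 0), led by Ctgf at 4.30 ± 2.17 (unadjusted p = 0.0754, adjusted p = 0.808), and 0% of genes were called in edgeR (185, or 1.2%, at an unadjusted p under 0.05, DESeq2 0). With the 3 libraries that stood apart left out, 8 of the 10 were negative (median -0.16). In a fit of 3 KO against 3 WT lines, each line being the sum of its 2 libraries, 8 differences were positive (60.7% of all genes) and 2 negative, Cyr61 at -0.79 ± 1.10 and Ankrd1 at -1.66 ± 1.22 (adjusted p = 0.998). In edgeR 0% of 16090 genes were called there (426, or 2.65%, at an unadjusted p under 0.05), and DESeq2 called 134 (0.661%). Without KO line 3 all 10 were negative (median -1.24), and without WT line 2 all 10 were positive (median 0.50).

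**Figure D2:**
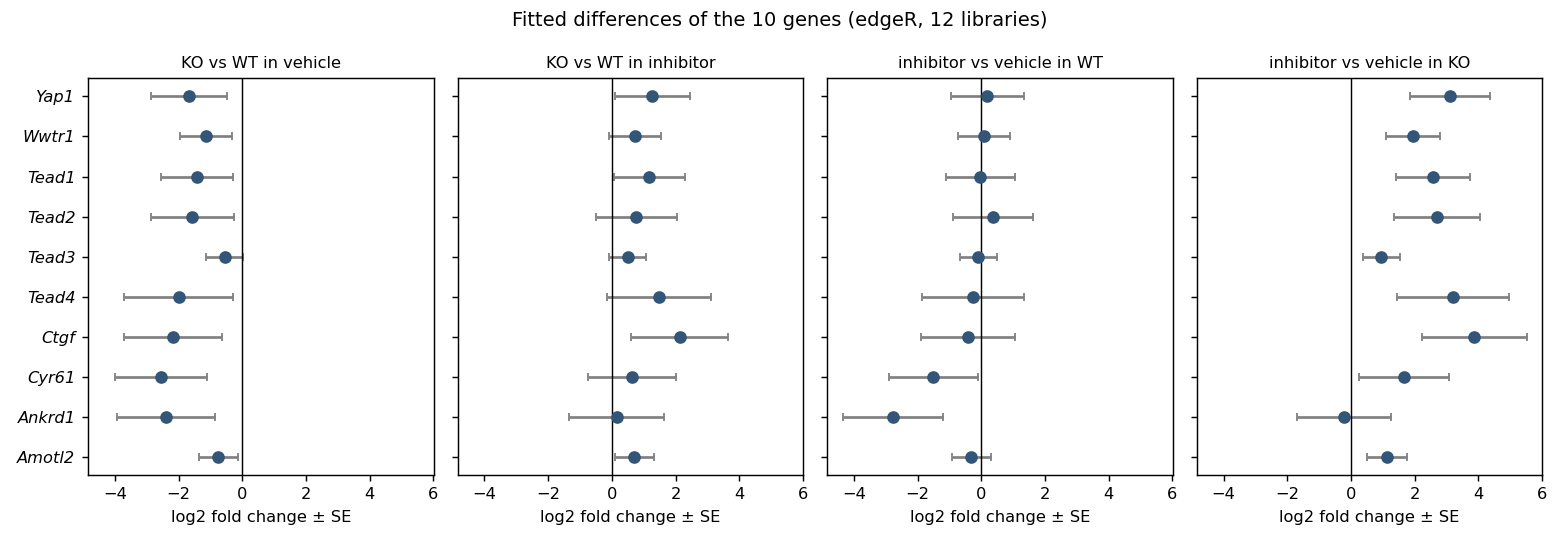
Fitted log2 fold change (point) and its SE (bar) of each gene in 4 comparisons, from the edgeR fit of 12 libraries. All 10 points lie below 0 for KO against WT in vehicle and above 0 in inhibitor, and none passed the test.

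Across the 12 libraries the 10 genes followed one another. Over log2 CPM, Pearson's r was 0.998 for Tead1 with Ctgf, 0.993 for Yap1 with Tead1 and 0.964 for Yap1 with Wwtr1. Ankrd1 followed the others least, with 0.70 for Yap1 and 0.75 for Ctgf, but 0.907 for Cyr61. These are descriptions over libraries that share the same spread, with 3 libraries far from the rest. Marker lists of other cells moved with them. The 7 epithelial markers, all detected in every library, summed to between 9.98 CPM in KO inhibitor line 2 and 1442 in KO inhibitor line 3, and their mean log2 level had r = 0.989 with Yap1, 0.980 with Tead1 and 0.739 with Ankrd1. The 9 progenitor markers, none at 0, summed to 25.5 to 581 CPM (r = 0.981 with Yap1). The 8 endothelial markers, of which 1 to 3 were at 0 in a library, summed to 4.13 to 386 CPM (r = 0.962). The 16 mesenchymal markers summed to 584 to 2720 CPM (r = 0.660), and 5 libraries had 1 of them at 0. Summed glutamatergic markers ran the other way, from 4539 CPM in KO vehicle line 3 to 1024 in KO inhibitor line 3. Their mean log2 level had r = -0.46 with Yap1. For every list r was taken on this mean, in which each marker weighs equally, and not on the sum. The r values therefore do not measure how closely the sums followed Yap1. The part of these cells in the levels of the 10 genes was not tested.

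**Figure D3:**
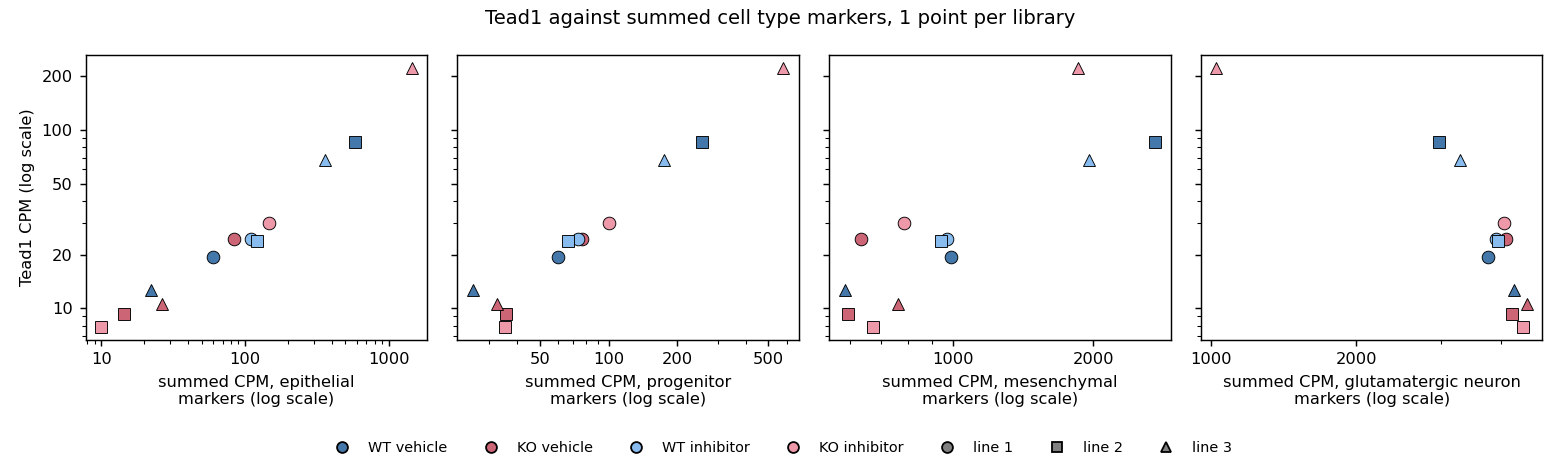
Tead1 level against the summed level of 4 marker lists, 1 point per library (CPM, log axes), with the group as colour and the line as symbol. Tead1 is higher where epithelial and progenitor markers are higher, and the library with the highest Tead1 (224 CPM) has the lowest summed glutamatergic markers (1024 CPM).

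Among 13423 genes with a mean of at least 1 CPM, those most like Yap1 over the 12 libraries were Filip1l, Fkbp9, Hmgb2, Bag3 and Ezr, with Filip1l at r = 0.997. Those most like Wwtr1 were Kank2, Ppm1d, Smo, Pcdhgc3 and Net1, with Kank2 at r = 0.993. Tead1 was most like Frmd8, Ctgf, Tgfbr3, Vangl1 and P3h1, and Ctgf was most like Tead1, Igsf11, Creb3l1, Plod1 and Mcm7.

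Ankrd1 and Cyr61 were then compared with the other 8 genes between the 2 libraries of each line. On the CPM scale both were lower with inhibitor than with vehicle in 4 of 6 lines and higher in line 3 of each genotype. The share of all genes lower in 4 lines was not computed. Cyr61 was level in WT line 1 (26.2 CPM in vehicle, 26.1 in inhibitor) and changed by only -0.26 on the log2 scale in KO line 2. Tead3 was lower in 3 lines, Tead1, Tead2 and Tead4 in 2, and Yap1, Wwtr1, Ctgf and Amotl2 in 1, WT line 2. Since the levels of all 10 moved with the library, the counts of each gene were set against those of Ctgf in the same library, a measure chosen after the values were seen. Per 1000 Ctgf counts, Ankrd1 held 34.4, 71.2 and 15.1 counts in the vehicle libraries of WT lines 1 to 3 and 8.87, 12.3 and 13.7 in their inhibitor libraries. In KO lines 1 to 3 it held 63.3, 27.4 and 46.2 counts in vehicle and 11.8, 20.7 and 2.44 in inhibitor. The ratio was lower with inhibitor in 6 of 6 lines, by a median of -2.19 on the log2 scale (-4.24 to -0.14), and was nearly level in WT line 3. Ankrd1 held 17 counts in WT vehicle line 3, and 13 in vehicle and 15 in inhibitor of KO line 2. The small drops there (-0.14 and -0.40) rest on these few counts, so their direction is uncertain. Cyr61 held 416, 523 and 321 counts per 1000 in WT vehicle and 320, 240 and 215 in WT inhibitor. In KO it held 417, 286 and 359 in vehicle and 173, 234 and 76.5 in inhibitor. It too was lower in 6 of 6 lines, by a median of -0.85 (-2.23 to -0.29).

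Of all 15443 genes 0.0389%, or 6 genes, were lower relative to Ctgf in all 6 lines, Ankrd1 and Cyr61 among them. The remaining members were not: Tead1 and Tead3 were lower in 5 lines, Amotl2 in 4, Tead2, Tead4 and Wwtr1 in 3 and Yap1 in 2. Ctgf was chosen as reference with these values known, so the share is a description and no test. In KO line 3 log2 CPM rose by 6.07 for Ctgf, 3.84 for Cyr61 and 1.78 for Ankrd1. The ratios of Cyr61 and Ankrd1 thus fell there although both genes rose. Relative to Ctgf, Amotl2 (-3.97) and Tead3 (-3.67) also fell in that line. Other genes were also taken as the reference. Ankrd1 was lower in 5 of 6 lines relative to Yap1, Wwtr1, Tead1, Tead3 or Amotl2. Cyr61 was lower in 6 relative to Yap1 (as were 0.732% of all genes), 5 relative to Tead1, 4 relative to Wwtr1 or Amotl2 and 3 relative to Tead3. The share of all genes lower in 5, 4 or 3 lines was not computed, so these counts do not show how unusual the 2 genes are.

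**Figure D4:**
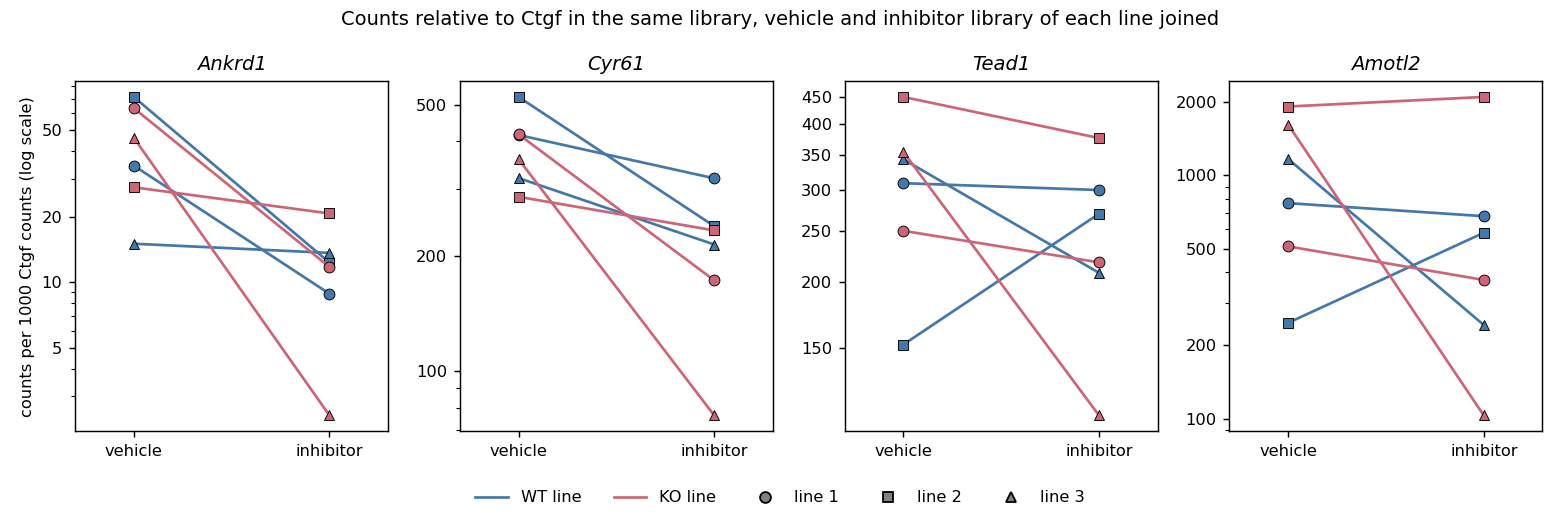
Counts per 1000 Ctgf counts in the same library (log axis) for 4 genes, with the vehicle and the inhibitor library of each line joined, WT lines in blue and KO lines in red. Every line slopes down for Ankrd1 and Cyr61, while WT line 2 slopes up for Tead1 and Amotl2.

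The inhibitor effect averaged over both genotypes was also fitted with the mean log2 level of the epithelial markers as a covariate, again added after the values were seen. Without the covariate Ankrd1 stood at -1.50 ± 1.07 and Cyr61 at 0.08 ± 0.97. With the line as a block and no covariate they stood at -0.81 ± 1.29 and 0.23 ± 1.15. The covariate fits held no line term, so the 2 libraries of a line counted as independent in them. With the epithelial covariate Ankrd1 stood at -2.35 ± 0.51 (unadjusted p = 0.000979, edgeR) and Cyr61 at -1.05 ± 0.23 (unadjusted p = 0.00105). These were the smallest p-values among 15443 genes, though with adjusted p = 1.00 and 0% of genes called in edgeR. At an unadjusted p under 0.05, 0.298% of all genes were lower. The other 8 members lay between -0.31 ± 0.40 (Tead4) and 0.27 ± 0.21 (Wwtr1) with the covariate. Leaving out each library in turn gave -2.87 to -1.49 for Ankrd1 and -1.41 to -0.78 for Cyr61, the values nearest 0 being those without WT vehicle line 2. Without that library Ankrd1 ranked 48 and Cyr61 ranked 20 by p among 15748 genes. With progenitor markers as the covariate Ankrd1 stood at -2.34 ± 0.65 and Cyr61 at -1.06 ± 0.35, and with mesenchymal markers at -1.91 ± 0.54 and -0.53 ± 0.62. By p they ranked 3 and 11 with progenitor markers, and 4 and 4735 with mesenchymal markers. The p-values rank genes in a fit chosen on these libraries and are given as a description.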

How the data were processed

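Poly(A)-selected, strand-specific RNA-seq was made from 12 libraries, per the labels' protocols. The authors deposited for each library an unnormalized read count and an RPKM value (cRPKM, corrected in a way not given in the sources used here) for 36902 genes, of which 3342 were NA. The build was mm10, per the submitters' processing notes. The aligner, annotation and use of strand in counting are not given in the sources used here. Groups and lines came from the labels. Counts were tested with edgeR 4.0.16 in R 4.3.3 (filterByExpr by group, TMM, robust quasi-likelihood F test, Benjamini-Hochberg over all genes, called under 0.05), with all 12 libraries in 1 fit and a coefficient per group, and with 3 against 3 line sums for genotype. The SE is the log2 fold change over the square root of F. CPM use TMM factors, correlations log2 CPM with a prior count of 2. DESeq2 1.42.0 and limma 3.58.1 (log2 of cRPKM plus 0.1) were alternatives, with other scalings, no filter, a replicate block and left-out libraries. The script was tested on simulated data. The 2 libraries of a line are paired by the label, although their deviations from the group means correlated at -0.72 to 0.57. The members and lists were chosen with earlier results of these data known. The named genes are the 10 members, the 2 genes of each further list with the smallest p in a comparison (of which some are given), and the 5 genes most like Yap1, Wwtr1, Tead1 and Ctgf. Genes overlapping an exon of a member (of Yap1, Tead1, Tead2 and Ctgf) held at most 74 counts over all libraries. Depth of 23253566 to 35012561 counts leaves Tead4 at 1 count in both libraries of KO line 2.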

Additional observations from a re-analysis of the deposited data

How the results depend on the processing

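No fold change of the 10 genes passed an adjusted p of 0.05 in any fit, and 64 of 80 changed sign under at least 1 alternative. Group sizes of 3, and a spread set by 3 libraries, limit every comparison. The covariate fits, the averaged contrast and the ratios were added after seeing the data. The count of called genes, 0 in each comparison by edgeR, was 17 for KO against WT in vehicle, 13 in inhibitor and 134 over line sums by DESeq2. It was 2, 1 and 2 in these 3 comparisons without the 3 libraries that stood apart, 2 in vehicle and 5 in inhibitor with progenitor markers as covariate, and 2 over line sums with no filter on low counts. Relative to Tead3, Cyr61 was lower with inhibitor in 3 of 6 lines. The numbers of WT and KO lines pair nothing in the labels: same-numbered libraries correlated at -0.65 to 0.17 in vehicle and at 0.38 to 0.80 in inhibitor. The replicate block changed no call. The values that follow are log2 differences that took the sign opposite to that of the edgeR fit of all libraries without covariate or block. With epithelial markers as covariate, KO against WT in inhibitor was -0.058 for Ankrd1, -0.13 for Cyr61, -0.19 for Tead2 and -0.029 for Tead4. With epithelial markers as covariate, KO against WT in vehicle was 0.25 for Ankrd1, 0.11 for Tead2, 0.0038 for Tead3 and 0.070 for Tead4. With epithelial markers as covariate, inhibitor against vehicle in KO was -0.92 for Cyr61, -0.099 for Tead2 and -0.36 for Tead4. With epithelial markers as covariate, inhibitor against vehicle in WT was -0.015 for Wwtr1. With epithelial markers as covariate, the inhibitor effect averaged over genotypes was -0.15 for Amotl2, -0.14 for Ctgf, -1.05 for Cyr61, -0.089 for Tead1, -0.031 for Tead3 and -0.31 for Tead4. Without a covariate these genes were positive, from 0.08 for Cyr61 to 1.72 for Ctgf, and the -1.05 of Cyr61 is the value given in the Results. With epithelial markers as covariate, the interaction was -0.31 for Ankrd1, -0.30 for Tead2 and -0.098 for Tead4. With progenitor markers as covariate, KO against WT in inhibitor was -0.62 for Ankrd1, -0.11 for Ctgf, -0.79 for Cyr61, -0.27 for Tead1, -0.80 for Tead2, -0.62 for Tead4 and -0.32 for Yap1. With progenitor markers as covariate, inhibitor against vehicle in KO was -0.0042 for Amotl2, -1.005 for Cyr61, -0.060 for Tead1, -0.14 for Tead2 and -0.15 for Tead4. With progenitor markers as covariate, the inhibitor effect averaged over genotypes was -0.18 for Amotl2, -0.13 for Ctgf, -1.06 for Cyr61, -0.080 for Tead1, -0.060 for Tead3 and -0.13 for Tead4. With progenitor markers as covariate, the interaction was -0.068 for Ankrd1, -0.48 for Tead2 and -0.029 for Tead4. With mesenchymal markers as covariate, KO against WT in vehicle was 0.77 for Amotl2, 3.53 for Ankrd1, 1.96 for Ctgf, 2.05 for Cyr61, 1.43 for Tead1, 1.94 for Tead2, 0.81 for Tead3, 2.16 for Tead4, 1.27 for Wwtr1 and 1.52 for Yap1. With mesenchymal markers as covariate, inhibitor against vehicle in KO was -0.049 for Cyr61. With mesenchymal markers as covariate, inhibitor against vehicle in WT was -0.0036 for Wwtr1. With mesenchymal markers as covariate, the inhibitor effect averaged over genotypes was -0.53 for Cyr61. By limma on log2 cRPKM, KO against WT in inhibitor was -0.32 for Cyr61 and -0.21 for Tead2. By limma on log2 cRPKM, inhibitor against vehicle in WT was 0.26 for Ctgf, 0.27 for Tead1 and 0.29 for Tead4. With the replicate block, KO against WT over line sums was -0.10 for Tead1, -0.42 for Tead2, -0.23 for Tead4, -0.0024 for Wwtr1 and -0.11 for Yap1. With the replicate block, inhibitor against vehicle in WT was 0.30 for Ctgf, 0.30 for Tead1 and 0.55 for Tead4. Without the 3 libraries that stood apart, KO against WT in inhibitor was -0.12 for Amotl2, -0.066 for Ctgf, -0.69 for Cyr61, -0.31 for Tead1, -0.59 for Tead2, -0.40 for Tead4 and -0.34 for Yap1. With those 3 libraries left out, KO against WT in vehicle was 0.0015 for Amotl2, 0.99 for Ankrd1, 0.035 for Tead2, 0.0062 for Tead3 and 0.0062 for Wwtr1. In the 9 other libraries, KO against WT over line sums was -0.039 for Amotl2, 0.86 for Ankrd1, -0.20 for Ctgf, -0.31 for Tead1, -0.43 for Tead2, -0.36 for Tead4 and -0.43 for Yap1. Without the 3 libraries that stood apart, inhibitor against vehicle in KO was -0.39 for Cyr61. With those 3 libraries left out, inhibitor against vehicle in WT was 0.20 for Amotl2, 0.75 for Ctgf, 0.30 for Cyr61, 0.57 for Tead1 and 1.06 for Tead4. In the 9 other libraries, the interaction was -0.12 for Amotl2, -0.77 for Ankrd1, -0.038 for Ctgf, -0.69 for Cyr61, -0.19 for Tead1, -0.63 for Tead2, -0.39 for Tead4 and -0.087 for Yap1. When each library, or each line for line sums, was left out in turn, the following results changed sign at least once. For KO against WT in inhibitor the range was -0.37 to 1.06 for Amotl2, -1.02 to 1.35 for Ankrd1, -1.05 to 3.08 for Ctgf, -1.44 to 1.36 for Cyr61, -1.02 to 1.85 for Tead1, -1.47 to 1.62 for Tead2, -0.28 to 0.98 for Tead3, -1.07 to 2.13 for Tead4, -0.53 to 1.36 for Wwtr1 and -1.04 to 1.93 for Yap1. For KO against WT in vehicle the range was -3.88 to 0.98 for Ankrd1 and -2.57 to 0.025 for Tead2. For KO against WT over line sums the range was -0.56 to 0.45 for Amotl2, -2.15 to 0.38 for Ankrd1, -1.44 to 1.75 for Ctgf, -1.997 to 0.35 for Cyr61, -1.10 to 1.03 for Tead1, -1.36 to 0.82 for Tead2, -0.29 to 0.31 for Tead3, -1.28 to 1.22 for Tead4, -0.73 to 0.60 for Wwtr1 and -1.19 to 1.19 for Yap1. For inhibitor against vehicle in KO the range was -1.39 to 1.24 for Ankrd1 and -0.41 to 2.86 for Cyr61. For inhibitor against vehicle in WT the range was -0.61 to 0.40 for Amotl2, -3.98 to 0.58 for Ankrd1, -1.39 to 1.69 for Ctgf, -2.23 to 1.00 for Cyr61, -0.71 to 1.23 for Tead1, -0.49 to 1.94 for Tead2, -0.58 to 0.43 for Tead3, -0.91 to 1.69 for Tead4, -0.55 to 1.18 for Wwtr1 and -0.48 to 1.57 for Yap1. For the averaged inhibitor effect with the epithelial covariate the range was -0.075 to 0.20 for Tead2, -0.36 to 0.079 for Tead3, -0.64 to 0.47 for Tead4 and -0.11 to 0.44 for Wwtr1. For the interaction the range was -0.77 to 4.03 for Ankrd1.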
